A study of Mus musculus with 6 samples.

Results

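The genes described here encode the nuclear subunits of the 5 mitochondrial oxidative phosphorylation complexes and a set of their assembly factors, followed in the livers of mice with 1 or both copies of Srf targeted. Members were all probe sets with exactly 1 gene symbol beginning with Nduf (complex I), Sdh followed by A to D (complex II), Uqcr (complex III), Cox4 to Cox8 (complex IV) or Atp5 (complex V). The prefixes also take in the assembly factors named Ndufaf and Sdhaf. They gave 185 probe sets for 94 genes, of 18194 genes with a single-symbol probe set on the array. Complexes I to V had 44, 8, 8, 17 and 17 of these genes. Another 10 probe sets that name such a gene list several symbols and were not members.

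Livers of 6 male mice, each 3 weeks old, were profiled on Affymetrix arrays, with 1 array per mouse. The 3 controls were Srf loxP/+ AlfpCre and the 3 mutants Srf loxP/loxP AlfpCre. AlfpCre is a Cre recombinase transgene under albumin and alpha-fetoprotein regulatory elements, active in the hepatocyte lineage, and it was carried by both groups, so every mouse had at least 1 recombinable copy of Srf and no mouse without Cre was compared. Srf encodes serum response factor, a transcription factor of actin cytoskeleton and immediate early genes, and the design sets mice with both copies targeted against mice with 1 copy targeted. The arrays are called by their labels, since the 2 Srf probe sets did not separate the groups. The brighter one (1418256_at) gave log2 signals of 5.31, 5.14 and 5.11 in controls 1 to 3 and 4.17, 5.24 and 2.54 in mutants 1 to 3, a difference of -1.20 (adjusted p = 0.398, limma). The sources used here do not say whether these probe sets lie in the deleted stretch.

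The respiratory chain sits in the inner mitochondrial membrane. Complex I takes electrons from NADH and complex II from succinate, ubiquinone carries them to complex III, and cytochrome c carries them to complex IV, which reduces oxygen. Complexes I, III and IV pump protons, and complex V, the ATP synthase, uses the gradient to make ATP. In hepatocytes this supplies gluconeogenesis, urea synthesis and protein secretion. Most subunits are encoded in the nucleus, the others in mitochondrial DNA, and for the 13 mitochondrial protein genes 0 had a single-symbol probe set here.

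The arrays differed in ways that touch every value below. The mean deposited signal, trimmed by 2% at each end, was 55.2 to 69.9 in controls and 37.3 to 58.1 in mutants, and arrays were scaled to a common trimmed mean. Correlations of log2 signal were 0.937 to 0.941 among controls and 0.827 to 0.907 among mutants. The 3'/5' signal ratio of control transcripts, which rises as RNA is degraded, was highest on mutant 1 for Actb, Gapdh and Pcx (5.33, 1.01 and 17.3). Averaged over the 3 transcripts on the log2 scale, and called the degradation index below, it was 0.91, 0.78 and 1.22 in controls 1 to 3 and 2.18, 1.18 and 1.57 in mutants 1 to 3, so mutant 2 lay within the control range and mutants 1 and 3 above it. The liver origin of the RNA was visible on every array, with log2 signals between 11.74 and 13.77 for Alb, Ttr, Apoa1, Tat and Cps1.

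Of the 185 member probe sets, 172 passed a filter that left out the dimmest 40% of probe sets by mean signal, and 91 of the 94 genes kept at least 1. Ndufb4, the testis isoform gene Cox7b2 and the muscle isoform gene Cox8b kept none. No member changed at an adjusted p under 0.05 (limma, Benjamini-Hochberg over all probe sets kept), where 20 of 27022 probe sets did (0.074%), 4 of them higher in mutants (0.0148%) and 16 lower (0.0592%). At an unadjusted p under 0.05, 13 members were higher in mutants (7.56%) and 2 lower (1.16%), against 7.6% and 6.18% of all probe sets. The smallest adjusted p of a member was 0.152, for Cox7a1. All differences below are therefore sizes with their errors, none past the threshold.

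The next counts say how often the 3 mutant signals lay wholly on one side of the 3 control signals, with no test of the set. All 3 mutants lay above all 3 controls for 54 of the 172 (31.4%), against 13.8% of all probe sets, and below them for 10 (5.81%), against 9.36%. The mutant mean was the higher one for 118 members (68.6%), against 54.8% of all probe sets. That share moved with the scaling, to 48.8% with arrays centred on their median and 23.8% on the deposited scaling, because these settings moved the median of all probe sets from 0.08 to -0.15 and -0.37. Complex medians are therefore also given relative to the median of all probe sets.

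By complex, the median log2 difference, mutant minus control, was 0.14 for complex I, -0.16 for II, 0.24 for III, 0.36 for IV and 0.26 for V. Relative to all probe sets kept these were 0.06, -0.24, 0.16, 0.28 and 0.18. The complex IV value relative to all probe sets was 0.29 on the deposited scaling and 0.29 with arrays centred on the median, 0.19 after quantile normalization, and -0.09 with the degradation index as a covariate. That covariate also took complexes I, III and V below the median of all probe sets (-0.03, -0.03 and -0.05) and complex II above it (0.06). The order of the complexes was thus kept across scalings for complex II, lowest in each, and was not kept once the index entered the fit. Without mutant 1, the array with the highest index, the medians of complexes I to V relative to all probe sets were 0.03, -0.09, 0.03, 0.10 and 0.08.

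**Figure D1:**
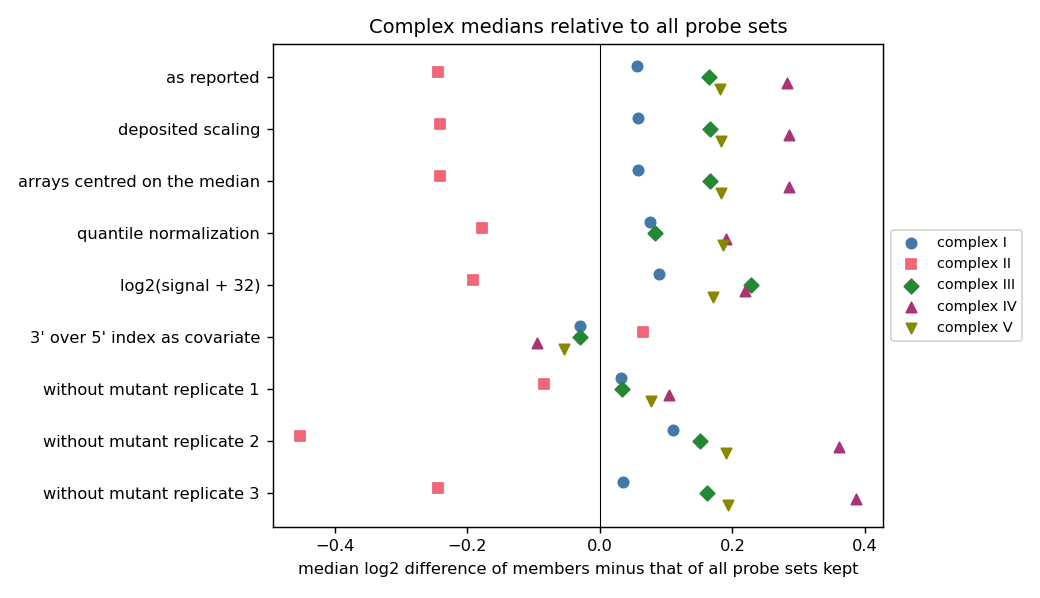
Median log2 difference (mutant minus control) of the member probe sets of each complex, minus the median of all probe sets kept, under 9 settings. The x axis is in log2 units and each marker is 1 complex. Complex IV lies at 0.28 and complex II at -0.24 as reported, and with the degradation index (3' over 5') as a covariate complex IV lies at -0.09 and complex II at 0.06.

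The rest of the account takes 1 probe set per gene, the one with the highest mean signal. Subunits and assembly factors are described apart, a division made after the values had been seen and therefore not tested. Of 77 subunit genes 59 (76.6%, against 54.1% of all genes) had the higher mean in mutants, with a median difference of 0.22, while on the deposited scaling 17 did and with arrays centred on the median 37 did. All 3 mutants lay above all 3 controls for 28 of the subunit genes (36.4%) and below them for 1 (1.3%), against 14.1% and 10.8% of all 13144 genes. Of 12 assembly factor genes 9 had the lower mean in mutants, with a median of -0.38, and the mutants lay below the controls for 7 (58.3%) and above them for 0. Relative to all probe sets the assembly factor median was -0.45 as reported, at the deposited scaling and with median centring, -0.38 after quantile normalization and -0.16 with the degradation index as a covariate, where 6 of the 12 were negative. The subunit median relative to all probe sets was 0.14, 0.15, 0.15, 0.04 and -0.04 in the same order.

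**Figure D2:**
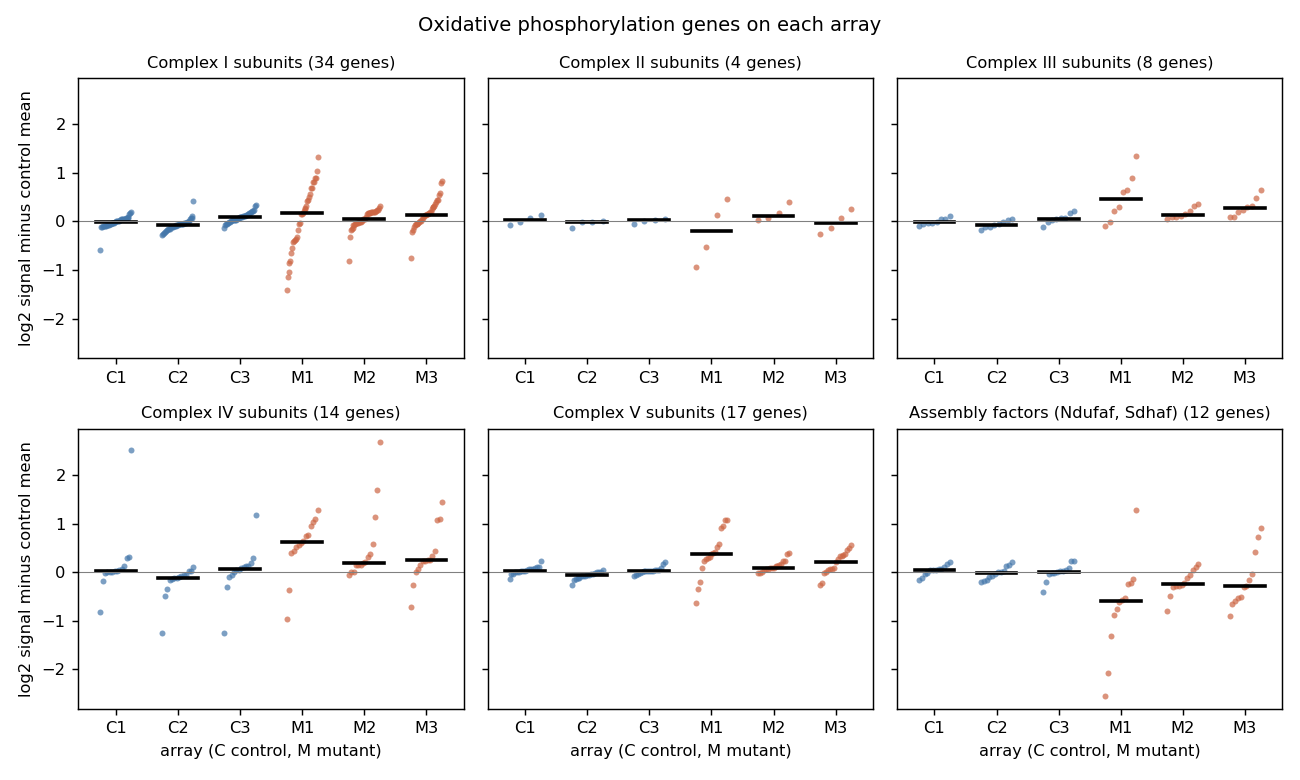
Log2 signal of each gene's brightest probe set minus its control mean, on control arrays C1 to C3 (blue) and mutant arrays M1 to M3 (red). Points are genes, ordered by value within an array, and bars are medians. The widest spread of points is on M1, except for complex IV, where Cox6b2 stands high on C1 and M2. The assembly factor medians are -0.60, -0.25 and -0.29 on M1 to M3.

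The 3 mutants did not contribute equally. Mutant 1 lay farthest from the control mean for 66 of the 91 member genes (72.5%), against 58.1% of all genes, and mutant 2 lay nearest for 58. The median shift of the subunit genes was 0.32 on mutant 1, 0.13 on mutant 2 and 0.18 on mutant 3, each above those of the controls, which ran from -0.07 to 0.05. Over all genes the median shift was 0.07, 0.07 and 0.14 on mutants 1 to 3. The subunit genes were above all genes on each mutant, by most on mutant 1. Without mutant 1, 64 of the 77 subunit genes had the higher mean in mutants. Their median relative to all probe sets was then 0.06, against 0.14 with all arrays.

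Signal level also moved with the difference. Among all genes with a mean log2 signal of 11 or more, 74.7% had the higher mean in mutants and 42.2% had mutants above controls, with a median of 0.30. The 25 subunit genes at that level had a median of 0.27, 24 of them were higher (96%) and 17 lay wholly above the controls (68%). Between 9 and 11, all genes had a median of 0.02 and the 42 subunit genes 0.14. Between 7 and 9, all genes had a median of 0.04, the 3 subunit genes -0.40 and the 5 assembly factor genes -0.29. In that range the subunit genes were thus no higher than the assembly factor genes. Between 5 and 7, all genes had a median of 0.04, the 3 subunit genes 0.32 and the 6 assembly factor genes -0.49. The level ranges were chosen after the values had been seen, and the part of signal level in these differences was not tested.

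**Figure D3:**
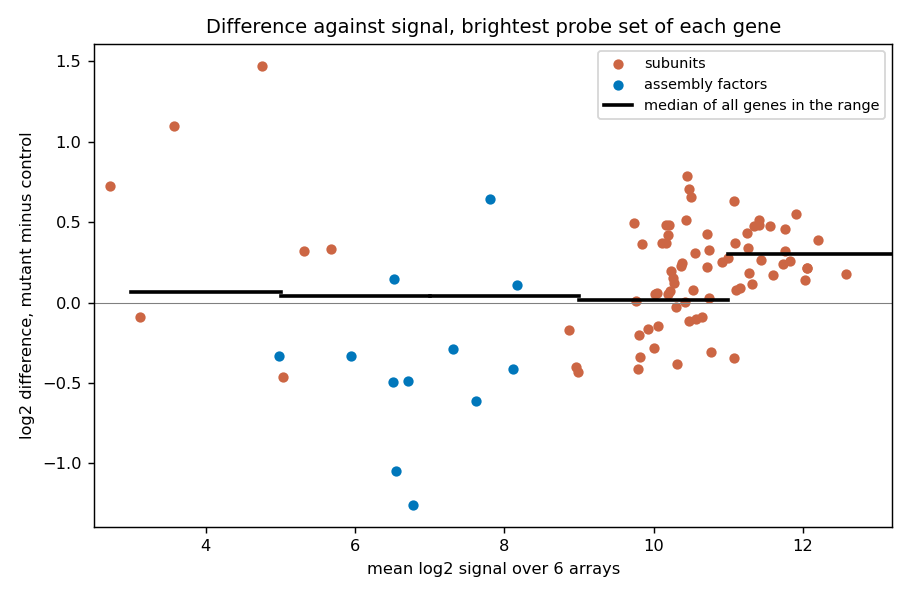
Log2 difference, mutant minus control, against mean log2 signal over the 6 arrays, for the brightest probe set of each gene. Points are subunit genes (red) and assembly factor genes (blue), and black lines are medians of all genes in ranges of signal. The line for log2 11 and above lies at 0.30, near the subunit genes of that range, and 9 of the 12 assembly factor genes lie below 0.

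Complex I subunits spread to both sides. Of 34 genes 22 had the higher mean in mutants (64.7%, against 54.1% of all genes), and the median was 0.07. The mutants lay above the controls for 7 (20.6%, against 14.1%) and below for 1 (2.94%, against 10.8%), and the differences ran from -0.46 to 0.78. The same shares of all genes stand behind the counts of the other complexes, but these shares differ by signal level. At a mean log2 signal of 9 to 11, 51.2% of all genes had the higher mean and 16.9% lay wholly above the controls. At 11 or more the shares were 74.7% and 42.2%. In the matrix arm the core subunits Ndufv1, Ndufv2 and Ndufs1 carry electrons from NADH and Ndufs3, Ndufs7 and Ndufs8 pass them to ubiquinone. Ndufv1, which binds NADH and the flavin (1415966_a_at), gave log2 signals of 10.05, 9.88 and 10.44 in controls 1 to 3 and 11.17, 10.40 and 10.92 in mutants 1 to 3. Mutants 1 and 3 were above every control and mutant 2 was not, and the difference was 0.71 (SE 0.27, adjusted p = 0.341). Its 3 probe sets at log2 7 or more gave 0.50 to 0.71.

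Ndufs8, an iron-sulphur subunit (1423907_a_at), lay on the other side, with log2 signals of 11.13, 11.36 and 11.25 in controls 1 to 3 and 10.43, 11.09 and 11.20 in mutants 1 to 3. Mutants 1 to 3 overlapped the controls only through mutant 3, and the difference was -0.34 (SE 0.25, adjusted p = 0.518). All 5 of its probe sets at that level were negative, from -0.48 to -0.16. Ndufs1, the largest core subunit, gave 9.32, 9.08 and 9.09 in controls 1 to 3 and 7.75, 9.37 and 9.17 in mutants 1 to 3, so its difference of -0.40 (SE 0.41) rested on mutant 1 alone. Differences were 0.49 for Ndufs7, 0.06 for Ndufs3 and -0.03 for Ndufv2, each with overlapping groups, and another bright probe set of Ndufv2 gave 0.47.

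Accessory subunits surround this core and hold the membrane arm. The largest difference among them was that of Ndufa2 (1417368_s_at), a small matrix-arm subunit, with log2 signals of 9.96, 9.79 and 10.40 in controls 1 to 3 and 11.39, 10.24 and 10.88 in mutants 1 to 3. Mutant 2 lay inside the control range, and the difference was 0.78 (SE 0.32, adjusted p = 0.356). Wholly above the controls were Ndufa1, needed for membrane arm assembly (0.48), Ndufa6 (0.48), Ndufb9 (0.48) and Ndufb11 (0.43) among others. Ndufa8 (1423692_at), a cysteine-rich subunit of the intermembrane side, was the only subunit gene of any complex that lay wholly below, at 10.05, 10.21 and 10.17 in controls 1 to 3 and 9.73, 9.82 and 10.03 in mutants 1 to 3, with a difference of -0.28 (SE 0.20, adjusted p = 0.501). Ndufa4, once counted in complex I and now placed in complex IV, gave -0.10 (SE 0.20). Its relative Ndufa4l2, a hypoxia-induced gene, was dim, with a control mean of 3.29, just above background, and a mutant mean of 2.16, below it. The log2 signals of Ndufa4l2 were 3.43, 3.32 and 3.12 in controls 1 to 3 and 1.47, 3.87 and 1.12 in mutants 1 to 3.

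Complex II, the only complex with no mitochondrially encoded subunit, is succinate dehydrogenase of the tricarboxylic acid cycle. Sdha, the flavoprotein that oxidises succinate (1426688_at), gave log2 signals of 10.57, 10.50 and 10.46 in controls 1 to 3 and 9.56, 10.57 and 10.25 in mutants 1 to 3. Mutant 2 matched the highest control, and the difference of -0.38 (SE 0.28, adjusted p = 0.515) came mainly from mutant 1. The iron-sulphur subunit Sdhb gave 0.08 and the membrane anchor Sdhc -0.16, both with overlapping groups. The other anchor, Sdhd (1428235_at), lay wholly above the controls, at 9.86, 9.95 and 9.98 in controls 1 to 3 and 10.40, 10.33 and 10.19 in mutants 1 to 3, a difference of 0.37 (SE 0.19, adjusted p = 0.397).

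Complex III had the higher mean in mutants for 8 of 8 genes, with a median of 0.32, and the mutants lay wholly above the controls for 5. On the gene level this count also moves with the scaling, as the probe set median of 0.24 became 0.01 with arrays centred on the median and -0.21 on the deposited scaling. Uqcrfs1, the Rieske iron-sulphur protein that passes electrons on to cytochrome c1 (1450968_at), gave log2 signals of 10.51, 10.40 and 10.30 in controls 1 to 3 and 10.71, 10.72 and 10.72 in mutants 1 to 3. The 3 mutants were nearly equal and above every control, a difference of 0.31 (SE 0.19, adjusted p = 0.446). The core structural subunits Uqcrc1 and Uqcrc2 gave 0.07 and 0.03, with overlapping groups.

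The 5 accessory subunits of complex III had a median of 0.34, and 4 lay wholly above the controls. Uqcrh (1453229_s_at), the acidic hinge protein that helps cytochrome c1 meet cytochrome c, gave log2 signals of 10.74, 10.58 and 10.97 in controls 1 to 3 and 11.66, 11.13 and 11.40 in mutants 1 to 3. Every mutant was above every control, with a difference of 0.63 (SE 0.23, adjusted p = 0.331). Uqcr10 gave 10.16, 10.20 and 10.17 in controls 1 to 3 and 11.53, 10.32 and 10.65 in mutants 1 to 3, wholly separated as well, but with mutant 1 standing well above the other mutants, a difference of 0.66 (SE 0.31, adjusted p = 0.382). Its other bright probe sets did not follow, at -0.23 and -0.06 with overlapping groups, the widest disagreement among member genes with several bright probe sets. Uqcrq, which stabilises cytochrome b, gave 0.34 (SE 0.21).

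Complex IV has nuclear subunits that surround 3 mitochondrial core subunits, several of them with isoforms that differ by tissue. The higher mean was in mutants for 13 of 14 subunit genes, and 7 lay wholly above the controls. The 9 general or liver isoforms had a median of 0.36, all 9 with the higher mean in mutants at the reported scaling. Cox4i1, an early-assembling subunit that binds ATP (1448322_a_at), gave log2 signals of 11.64, 11.49 and 11.77 in controls 1 to 3 and 12.66, 11.84 and 12.08 in mutants 1 to 3. The groups did not overlap, though mutant 2 was only just above the highest control, and the difference was 0.55 (SE 0.26, adjusted p = 0.375). Cox5a, Cox5b, Cox6a1 and Cox6c also lay wholly above, with differences of 0.46, 0.32, 0.39 and 0.27, although a second bright probe set of Cox6c gave -0.16 with overlapping groups.

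Cox7a1, the heart and skeletal muscle isoform of subunit 7a (1418709_at), had the smallest adjusted p of any member. Its log2 signals were 3.83, 3.92 and 4.31 in controls 1 to 3 and 5.31, 5.71 and 5.46 in mutants 1 to 3. Every mutant was well above every control, and the difference was 1.47 (SE 0.29, 95% interval 0.80 to 2.15), which is 2.77-fold, with an adjusted p of 0.152 that ran from 0.0773 to 0.725 over the alternatives. Its difference was about as large without mutant 1 (1.56) and with the degradation index as a covariate (1.58), though the covariate fit gave the highest adjusted p, 0.725. The difference was 1.02 on the deposited scaling and 0.67 on the log2(signal + 32) scale, which shrinks differences of dim genes. The signal was low, against background estimates of 2.87 in controls and 3.04 in mutants.

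Markers of other tissues that use Cox7a1 were read beside it. Of 6 striated muscle markers only Acta1 passed the filter, with overlapping groups, and Ckm, Myh4, Tnnt3, Myl1 and Tnni2 did not. All 6 had means below background in both groups. The summed signal of the 6 was 9.32 to 19.8 in controls and 16.2 to 39.3 in mutants, which at that level is no measure of muscle RNA. Of 3 brown fat markers, Ucp1 was at a log2 of 0.87 or less on every array, Cidea was at 1.94 or less, and Elovl3, which liver also makes, was lower in mutants by 3.33 (adjusted p = 0.167), so that the summed signal was 31.5 to 257 in controls and 10.2 to 12.0 in mutants.

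The liver isoform of the same subunit, Cox7a2 (1416970_a_at), gave log2 signals of 11.97, 11.87 and 11.99 in controls 1 to 3 and 12.50, 11.88 and 12.08 in mutants 1 to 3. Its groups overlapped, and the difference was 0.22 (SE 0.22, adjusted p = 0.64). Cox7a2l, a related protein that joins complexes III and IV in supercomplexes (1421772_a_at), gave 9.16, 8.95 and 9.08 in controls 1 to 3 and 10.77, 9.14 and 9.83 in mutants 1 to 3. Mutant 2 lay within the controls while mutants 1 and 3 lay above them, a difference of 0.85 (SE 0.39, adjusted p = 0.371), and its 3 probe sets at log2 7 or more gave 0.72 to 0.85.

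Cox6b2, the testis isoform of subunit 6b (1435275_at), split the arrays across the groups. Its log2 signals were 8.03, 4.25 and 4.25 in controls 1 to 3 and 4.54, 8.19 and 4.79 in mutants 1 to 3. Control 1 was 13.8-fold above the mean of the other controls and mutant 2 was 11.5-fold above that of the other mutants, so the group difference of 0.33 (SE 1.24) describes neither group. In a count made after this was seen, it was the 1 probe set of 27022 in which 1 control and 1 mutant stood at least 3 log2 units above the other 4 arrays, with the brightest of those 4 above background. Its general counterpart Cox6b1 showed no such split, at 12.00, 11.83 and 12.05 in controls 1 to 3 and 12.39, 11.95 and 11.96 in mutants 1 to 3.

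**Figure D4:**
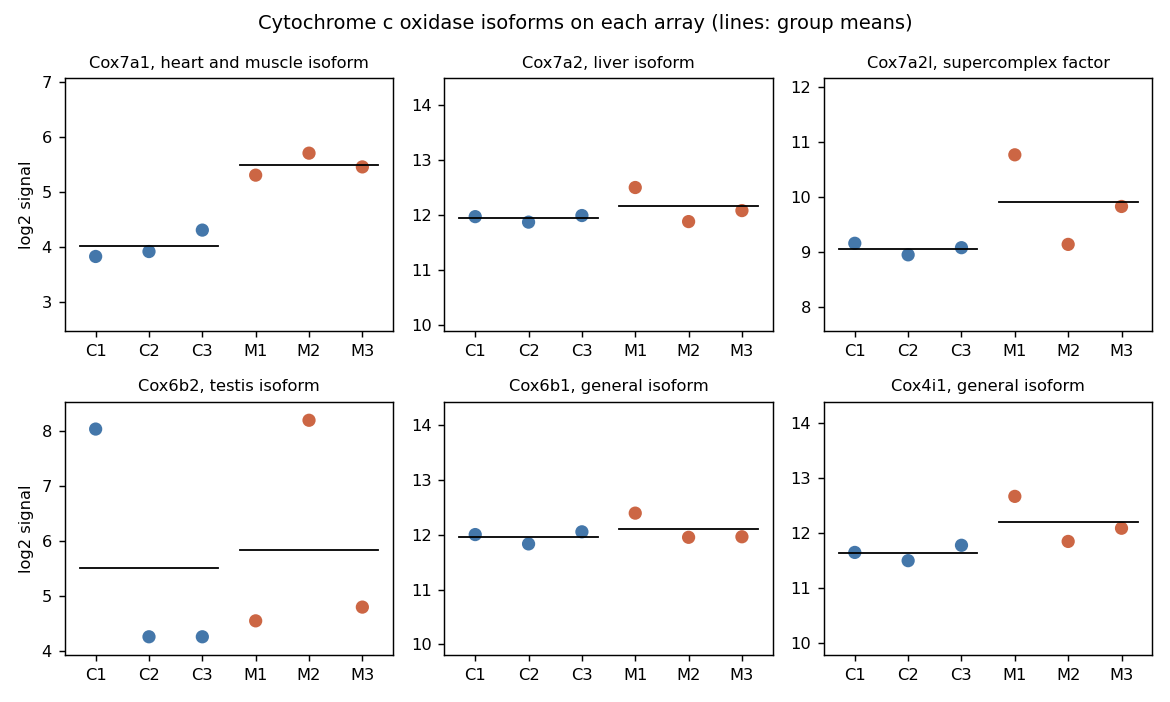
Log2 signal of 6 cytochrome c oxidase genes on control arrays C1 to C3 (blue) and mutant arrays M1 to M3 (red), with lines at the group means. Each panel has its own y range, so heights are not compared between genes. The Cox7a1 groups are apart, 3.83 to 4.31 against 5.31 to 5.71, while Cox6b2 is high on C1 and M2 only.

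The remaining isoform genes were dim or overlapping. Cox4i2, the lung and hypoxia isoform, was below background in controls (0.73, adjusted p = 0.497). Cox6a2, the muscle isoform of subunit 6a, gave -0.09 and its liver counterpart Cox6a1 0.39. Cox8c, another testis isoform, gave 0.32 and the general Cox8a 0.36, both with overlapping groups. Cox7c was represented only by dim probe sets, and the brighter gave 1.10 (SE 0.55) with overlapping groups.

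In complex V, 14 of 17 genes had the higher mean in mutants at the reported scaling, with a median of 0.24 (on all its probe sets 0.26, and -0.19 on the deposited scaling), and 8 lay wholly above the controls. The F1 head makes ATP, and its 5 genes had a median of 0.26. The catalytic beta subunit gene Atp5b (1416829_at) gave log2 signals of 11.72, 11.67 and 11.72 in controls 1 to 3 and 12.09, 11.83 and 11.96 in mutants 1 to 3. Every mutant was above every control, a difference of 0.26 (SE 0.19, adjusted p = 0.51). Atp5a1 and Atp5c1, the alpha and gamma subunits, gave 0.09 and 0.17, and Atp5d and Atp5e, the delta and epsilon subunits of the rotor, 0.52 and 0.52, with mutant 1 the highest array for both.

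The peripheral stalk holds the head still while the rotor turns. Its subunit d gene Atp5h (1435112_a_at) gave log2 signals of 11.18, 11.37 and 11.41 in controls 1 to 3 and 11.90, 11.72 and 11.78 in mutants 1 to 3. The 3 mutants were close to one another and above every control, with a difference of 0.48 (SE 0.19, adjusted p = 0.351), the smallest adjusted p of this complex. Atp5pb gave 0.24 and, on its other probe set, -0.13, the oligomycin sensitivity protein gene Atp5o 0.20 and coupling factor 6, Atp5j, -0.09. The 3 genes for the same c-ring protein gave -0.12 for Atp5g1, 0.37 for Atp5g2 and 0.22 for Atp5g3, all with overlapping groups. Atp5k, the e subunit at the dimer interface, had the lowest value of the complex, -0.30 (SE 0.22).

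**Figure D5:**
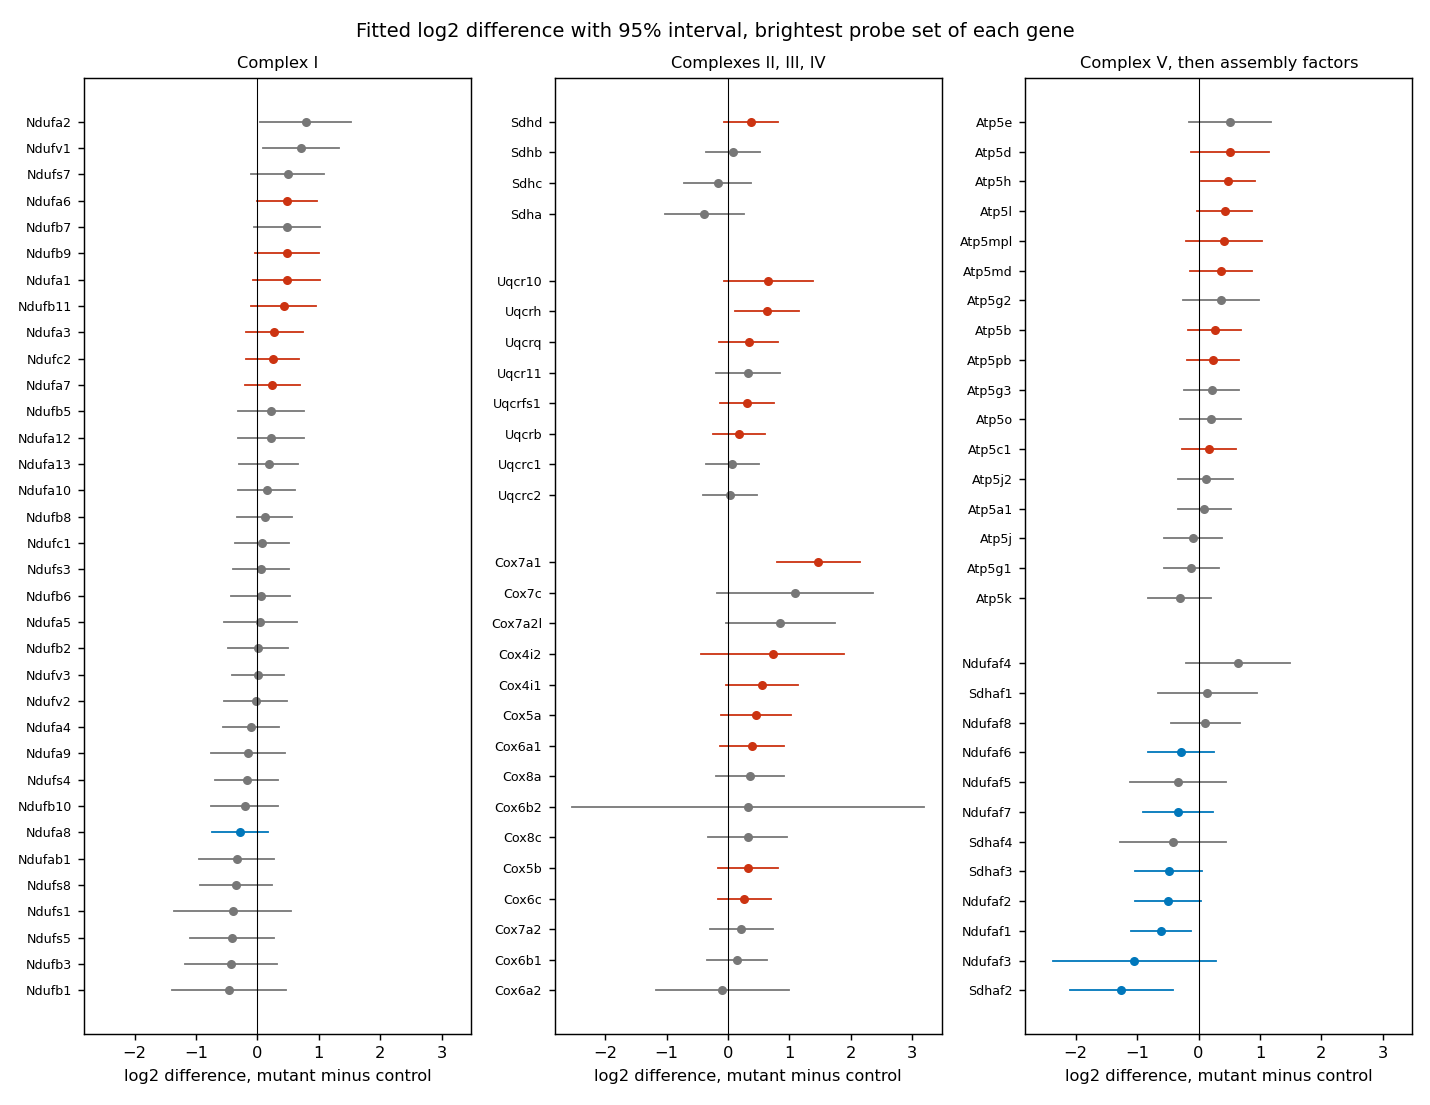
Fitted log2 difference (mutant minus control) with its 95% interval for the brightest probe set of each tested member gene except Ndufa4l2, which is not shown. Red marks genes whose 3 mutants all lay above the 3 controls, blue those all below, and grey those that overlapped. Red genes lie in all 5 complexes, in complex II only Sdhd, while blue ones are 7 assembly factors and Ndufa8.

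Assembly factors are not part of the finished complexes. Ndufaf1 (1423711_at), a chaperone of the complex I membrane arm, gave log2 signals of 7.98, 7.89 and 7.91 in controls 1 to 3 and 7.17, 7.44 and 7.34 in mutants 1 to 3. Every mutant was below every control, and the difference was -0.61 (SE 0.21, adjusted p = 0.326). Ndufaf2, a late factor for the matrix arm, gave -0.49, Ndufaf6 -0.29 and the methyltransferase gene Ndufaf7 -0.33, each also wholly lower, though the highest mutant and the lowest control of Ndufaf6 were equal at 2 decimals (7.34). Ndufaf3 was wholly lower too, at 7.11, 7.08 and 7.04 in controls 1 to 3 and 4.52, 6.79 and 6.77 in mutants 1 to 3, but its difference of -1.05 (SE 0.58) came mostly from mutant 1. Its partner Ndufaf4 gave 0.64 and Ndufaf8 0.11, both with overlapping groups.

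Sdhaf2 (1428880_at), which helps to attach the flavin to Sdha, gave log2 signals of 7.25, 7.54 and 7.43 in controls 1 to 3 and 5.33, 6.60 and 6.51 in mutants 1 to 3. Every mutant was below every control, with a difference of -1.26 (SE 0.37, adjusted p = 0.292), the lowest of any member gene. Its other probe set (1452941_at) did not follow, at -0.06 (SE 0.23), so the probe sets of this gene disagreed. Sdhaf3, a factor for the iron-sulphur subunit, gave -0.49 (SE 0.24) with separate groups, Sdhaf4 -0.42 and Sdhaf1 0.15.

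Probe sets of a gene mostly ran the same way where they were bright. Of 39 member genes with several probe sets at a mean log2 signal of 7 or more, 28 had 1 sign and 11 had both, and the median range of their differences was 0.17. Dim second probe sets gave far larger values. That of Ndufs4 (1459760_at) was at 1.52, 0.00 and 0.87 in controls 1 to 3, below background, and 6.17, 2.40 and 3.83 in mutants 1 to 3, a fitted difference of 3.33 (adjusted p = 0.296), while the gene's brightest probe set gave -0.17. For Ndufab1, the mitochondrial acyl carrier protein, a dim probe set (1435934_at) gave 2.35 and the brightest -0.34. Fitted differences with a group below background are no exact size.

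Promoters are shown for 4 genes that stand for these contrasts, chosen after those values were seen. They are Uqcrh, a subunit gene wholly higher, Ndufaf1, an assembly factor gene wholly lower, and the muscle and liver isoform pair Cox7a1 and Cox7a2. Each run is the 250 bases before the RefSeq start site in GRCm38.p6, with the letters CCGGAAG, or CTTCCGG on the other strand, in capitals. These letters are 1 exact form of the site that ETS factors such as GABPA, the NRF2 of mitochondrial genes, bind. Other forms were not searched, so a promoter without the letters may still hold such a site.
Uqcrh (chr4:116075071-116075320, minus strand): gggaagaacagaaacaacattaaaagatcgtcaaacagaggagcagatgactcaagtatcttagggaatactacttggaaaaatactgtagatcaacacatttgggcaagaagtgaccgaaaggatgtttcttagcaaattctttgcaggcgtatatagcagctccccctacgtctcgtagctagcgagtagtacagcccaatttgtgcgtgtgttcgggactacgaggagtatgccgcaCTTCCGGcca
Ndufaf1 (chr2:119662835-119663084, minus strand): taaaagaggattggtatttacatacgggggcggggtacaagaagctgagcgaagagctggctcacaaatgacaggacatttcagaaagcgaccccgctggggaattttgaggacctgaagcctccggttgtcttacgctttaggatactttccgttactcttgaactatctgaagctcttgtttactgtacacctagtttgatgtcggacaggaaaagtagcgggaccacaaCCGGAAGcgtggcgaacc
Cox7a1 (chr7:30183921-30184170, plus strand): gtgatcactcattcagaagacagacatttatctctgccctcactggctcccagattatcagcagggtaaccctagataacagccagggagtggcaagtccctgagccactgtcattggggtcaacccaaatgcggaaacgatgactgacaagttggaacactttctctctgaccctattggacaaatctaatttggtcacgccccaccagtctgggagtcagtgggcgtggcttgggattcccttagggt
Cox7a2 (chr9:79759854-79760103, minus strand): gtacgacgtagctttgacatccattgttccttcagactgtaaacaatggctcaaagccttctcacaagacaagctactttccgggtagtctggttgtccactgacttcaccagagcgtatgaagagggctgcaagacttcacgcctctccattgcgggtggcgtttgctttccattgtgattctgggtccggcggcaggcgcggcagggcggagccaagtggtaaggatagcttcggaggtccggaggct
Uqcrh and Ndufaf1, which lay on opposite sides of the controls, both carry the ETS letters, close to the start site, and neither Cox7a gene does in this window. A promoter was found for 78 of the 94 genes, 83 in all. The ETS letters occurred in 16 of the 83 promoters (19.3%), against 6.91% of all 32851 promoters of that length. The 16 genes included 12 with the higher and 4 with the lower mean in mutants, with a median of 0.24. Of the 59 tested genes whose promoter lacked the letters, 40 had the higher and 19 the lower mean, a similar split, with a median of 0.17. The NRF1 core CGCATGCG occurred in 7 (8.43% against 1.55%), in Atp5g2, Atp5j, Atp5k, Atp5l, Cox6a1, Ndufa8 and Ndufaf4, and the YY1 letters AAGATGGCG in 1, Atp5j (1.2% against 0.606%). The CArG box, the motif that serum response factor binds, occurred in 0 of the 83, against 1.47% of all promoters. These motifs were searched on both strands, and Atp5j, Atp5l and Cox6a1 held both the ETS and the NRF1 letters.

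Other genes of the pathway were read from lists, and no listed gene passed the test. The counts below stand against all genes tested, of which 54.1% had the higher mean in mutants, 14.1% lay wholly above the controls and 10.8% wholly below. Assembly factors of other names come first. For complex IV 13 of 20 tested had the lower mean in mutants, with a median of -0.19, and 4 lay wholly below and 1 above the controls. Cox19, a copper-handling factor, gave log2 signals of 8.04, 8.17 and 7.99 in controls 1 to 3 and 7.61, 7.26 and 7.34 in mutants 1 to 3, a difference of -0.66 (SE 0.22, adjusted p = 0.315). Cox18, which inserts a core subunit, gave -0.66, and Cox10, which makes heme for complex IV, gave 0.73. Of 15 tested factors for complexes I, III and V, a list that holds no Ndufaf gene, 11 had the lower mean, with a median of -0.17, and 4 lay wholly below the controls. Atpaf1 and Atpaf2, the chaperones of the F1 head, gave -0.69 (SE 0.24, adjusted p = 0.326) and -0.86 (SE 0.33, adjusted p = 0.34), both wholly below the controls. Acad9 at -1.29 (SE 0.58) and Uqcc1 at -0.81 (SE 0.39) were also wholly below, with mutant 1 far the lowest array for both. Acad9 on mutant 2 was barely below control 3, at 6.91 against 6.92.

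Enzymes that feed the chain were mixed. In the tricarboxylic acid cycle 10 of 17 had the higher mean, near the share of all genes, with a median of 0.05. Fh1, fumarate hydratase (1424828_a_at), which uses the product of complex II, gave log2 signals of 10.25, 10.04 and 10.12 in controls 1 to 3 and 11.99, 10.85 and 11.62 in mutants 1 to 3. Every mutant was above every control, a difference of 1.35 (SE 0.30, adjusted p = 0.2). Mdh2, mitochondrial malate dehydrogenase, gave 0.71 (SE 0.22, adjusted p = 0.308). Of 21 electron carriers and dehydrogenases feeding ubiquinone, 9 were higher and 12 lower, with a median of -0.03. Prodh, proline dehydrogenase (1417629_at), was wholly higher, at 1.15 (SE 0.26, adjusted p = 0.206), and Gpd2, the mitochondrial glycerol phosphate dehydrogenase (1417434_at), wholly lower, at -0.63 (SE 0.20, adjusted p = 0.308).

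Of 19 transcription factors and co-activators of mitochondrial genes, 14 had the higher mean, with a median of 0.25. Tfb2m, a mitochondrial transcription factor (1423441_at), gave log2 signals of 7.23, 7.30 and 7.39 in controls 1 to 3 and 8.02, 7.69 and 8.80 in mutants 1 to 3, a difference of 0.86 (SE 0.31, adjusted p = 0.332). Tfb1m, its relative that methylates mitochondrial ribosomal RNA, lay wholly below the controls, at -0.91 (SE 0.45). Of 8 ATP, phosphate and proton carriers 8 had the higher mean, with a median of 0.17, led by the adenine nucleotide carrier Slc25a4 at 0.51 and the phosphate carrier Slc25a3 at 0.46.

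Cell-type markers moved beside these values. The 5 hepatocyte markers with a probe set all had the higher mean in mutants, with a median of 0.40, and their summed signal was 29120 to 33322 in controls and 38138 to 48007 in mutants. All 5 had a mean log2 signal above 11, a range in which 74.7% of all genes had the higher mean, with a median of 0.30. Of 7 stellate and myofibroblast markers 6 had the lower mean, with a median of -1.59, and a summed signal of 1252 to 1347 in controls and 112 to 821 in mutants. Only the collagen genes Col1a1, Col1a2 and Col3a1 lay wholly below the controls. Lrat, Acta2, Pdgfrb and Des overlapped, and Des had the higher mean (0.75). Most of the control sums came from Col3a1 alone, at log2 signals of 9.69 to 9.77 in controls. All 5 tested lymphocyte markers were lower in the mutant mean, with sums of 90.2 to 107 and 39.4 to 105. The 4 cholangiocyte markers had the higher mean, with a median of 0.65 and low sums of 33.9 to 36.7 and 39.2 to 62.6, and the 6 endothelial markers were split, 3 higher and 3 lower, with a median of -0.06. Of 6 Kupffer and macrophage markers 4 had the lower mean (median -0.44, sums of 980 to 1452 and 755 to 1122), as had the 2 tested erythroid markers (median -1.85, sums of 254 to 491 and 18.3 to 366). In whole liver RNA, fewer cells of a type and less RNA per cell cannot be told apart, and the part of cell composition in the differences of the oxidative phosphorylation genes was not tested.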

How the data were processed

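The authors deposited linear intensity values for 45101 probe sets on 6 arrays, made with GCOS, the Affymetrix software, per the submitters' processing notes. The sources used here give neither its version nor its scaling. Gene symbols came from the platform annotation. Arrays were scaled to the mean of the 6 trimmed means (2% at each end), signals under 1 were set to 1, log2 was taken, and the dimmest 40% (mean log2 signal of 2.10 or less) were left out. The groups were compared in limma 3.58.1 (R 4.3.3; lmFit, then eBayes with a variance trend), two-sided, with Benjamini-Hochberg adjustment over 27022 probe sets and a threshold of 0.05. The fit was tested on simulated data. Background is the 95th percentile of 83 olfactory, vomeronasal and taste receptor probe sets. Having only 3 arrays in a group limits the precision.

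The members, lists and markers were chosen with earlier results of these data known. Named genes are members past the threshold, the 3 largest differences each way per complex, the core subunits, the isoform families, and up to 4 per list by adjusted p. Other member genes, the role groups, signal ranges, motifs and promoters were chosen after values were seen. Promoter sequences are from RefSeq, GRCm38.p6. Alternatives covered scaling, filter, floor, variance prior, 3'/5' degradation index, replicate block, counting unit, membership and each array left out.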

Additional observations from a re-analysis of the deposited data

How the results depend on the processing

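No member probe set passed the threshold under any of the 17 alternatives, and leaving out each array in turn gave 0 to 0 of them, while the smallest adjusted p of a member, 0.152 as reported, reached 0.0682 without mutant 2. On the deposited scaling the medians of complexes I to V were -0.32, -0.62, -0.21, -0.09 and -0.19, and with arrays centred on the median -0.10, -0.40, 0.01, 0.13 and 0.03, with the median of all probe sets at -0.37 and -0.15. Quantile normalization gave 0.10 for complex III. With the degradation index (3'/5') as a covariate complexes II to V were at 0.18, 0.09, 0.02 and 0.06, and the cause was not tested. With 1 probe set per gene complexes I and II were at 0.05 and -0.27, and with subunits only, which leaves out the Sdhaf genes of complex II, at 0.20 and -0.04. Leaving out each array in turn gave 0.09 to 0.23 for complex I, -0.34 to 0.02 for II, 0.14 to 0.27 for III, 0.21 to 0.48 for IV and 0.18 to 0.31 for V. The highest complex II value and the lowest complex III and IV values were those without mutant 1. The sign turned for 20 of the 50 named genes on the deposited scaling, 11 with median centring, 8 after quantile normalization, 25 with the index as a covariate and 8 without mutant 1, none of them past the threshold on either side.

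With the replicate number as a replicate block 0 members and 22 of all probe sets passed, and the complex medians did not move. With group means subtracted, same-numbered samples correlated at -0.04, 0.02 and 0.04, and the other control and mutant pairs at -0.10 to 0.08. With 3 arrays in a group this cannot show whether equal numbers share a litter or day, and the labels do not say. Members near or below background, 13 of 172 in at least 1 group, have differences of no exact size.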

Other observations

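Genes near Cox6b2 were read to describe its split between arrays. Of the genes within 100 kb of it in the RefSeq table, 6 had a probe set above background in both groups, namely Ube2s, Hspbp1, Isoc2b, Kmt5c, Tmem238 and Ppp6r1. None of the 6 was high on control 1 and mutant 2 together. Ube2s, for example, gave log2 signals of 7.56, 7.82 and 7.74 in controls 1 to 3 and 8.55, 7.25 and 7.58 in mutants 1 to 3. Isoc2b had the widest range of the 6, 4.14, with mutant 1 the lowest array at 2.69. The window was chosen after the values had been seen.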
